A study of Arabidopsis thaliana with 6 samples.

Results

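The comparison set 1 library of the ein5-1 ski2-3 double mutant of Arabidopsis thaliana, which has RDR6, against 1 library of the rdr6-11 ein5-1 ski2-3 triple mutant. Both carried the ein5-1 and ski2-3 alleles, and by their labels they differed by the rdr6-11 allele. These are 2 of the 6 libraries of the series, each from a single genotype, the others being wild type Col-0 and the ein5-1, ski2-3 and rdr6-11 single mutants. All genotypes were sampled as aerial tissue at 18 days of age, from plants kept at 22 °C under 16 h of light and 8 h of dark, and nothing in the labels separates the genotypes by treatment. The genes described are the nuclear ones, 33323 of 33602 in the table, and 15642 of them were measured, meaning at least 100 reads in one or the other of the pair. A log2 ratio above 0 means a higher level in the double mutant. The question was what RDR6 adds once both cytoplasmic routes of RNA decay are impaired.

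EIN5, also called XRN4, is the exonuclease that degrades decapped RNA in the cytoplasm from the 5' end. SKI2 is the helicase of the Ski complex, which threads RNA into the exosome for decay from the 3' end. RDR6 copies single-stranded RNA into double-stranded RNA, which Dicer enzymes cut into small interfering RNAs. In normal leaves its best known products are the trans-acting siRNAs (tasiRNAs), made from noncoding TAS precursors that a microRNA has cleaved. When decay fails, RNA that would have been degraded can enter the same pathway, and siRNAs from coding genes then silence those genes.

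With 1 library a genotype no difference could be tested, so differences are described by size. A gene was called where its ratio reached 2-fold, and bracketed ranges after a ratio are 95% intervals from the read counts alone. The double mutant library had 33100379 reads and the triple mutant library 30565543, of which 16593256 and 15440056 fell on nuclear genes. Levels are given as scaled CPM, the reads of a gene per 1000000 nuclear reads of its library after scaling between libraries, and they are compared only within a gene. The rdr6-11 and triple mutant libraries stood apart from the others in several ways. Even counts made up 81.9% and 81.5% of their genes with few reads (from 1 to 20), against 38.4% to 41.5% elsewhere, so that their counting intervals are too narrow if reads were counted in pairs. Their circadian clock genes were also in another state, and both lacked reads of the gene TRX3, as described further on. The rdr6-11 allele, the counting pattern, the clock state and the absence of TRX3 reads coincide in the same libraries and cannot be told apart here. For this reason Col-0 over rdr6-11, the same allele with both decay routes intact, is given beside many of the results. Where it is not given, a ratio should not be read as particular to the pair with decay impaired. Col-0 also stood apart, with ribosomal RNA at 19.2% of its nuclear reads against 0.335% to 2.71% in the other libraries. The difference between the log2 ratios of the 2 comparisons sets the pair with decay impaired against the pair with decay intact. What both rdr6-11 libraries share cancels in it as far as it is equal on the log scale. What is particular to any single library compared does not cancel, and it cannot be told apart from the decay mutations. The leaf identity of the tissue was evident from the photosynthesis genes, whose sum was 37767 scaled CPM for the double and 112321 for the triple mutant. Root markers other than SHR and SCR had at most 31 reads in any library (CASP1), and the floral identity genes AP1, AP3, PI, AG, SEP1, SEP3 and LFY at most 25 (SEP3 in Col-0). In bulk tissue, fewer cells of a type and less RNA per cell cannot be told apart.

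Large differences were common. In the double mutant 1871 genes were at least 2-fold higher than in the triple mutant, 12.0% of those measured, and 1737 were at least 2-fold lower, 11.1%. Col-0 and rdr6-11 differed less. There 764 of 13300 genes were at least 2-fold higher in Col-0 (5.74%) and 618 were lower (4.65%). The percentages of both comparisons are the shares over all genes measured, beside which the counts of list members further on should be read. The difference of the 2 ratios reached 2-fold upward for 976 of 15707 genes (6.21%) and downward for 1220 (7.77%). Among the genes called in the double over triple comparison 51.9% were higher, and this share was 64.2% with scaling by total nuclear counts, 65.6% when ribosomal RNA was left out of those totals, 63.5% with organelle genes in the total and 63.8% from the authors' RPKM. For the difference of the 2 ratios it was 44.4%, against 78.7% with total nuclear counts, 55.1% without ribosomal RNA, 58.9% with organelle genes and 58.9% from RPKM. For Col-0 over rdr6-11 it was 55.3%, but 35.7% with total nuclear counts and 62.1% without ribosomal RNA in them. The balance of higher against lower genes therefore depended on scaling, and the median gene of the double over triple comparison stood at 0.07 here and at 0.23, 0.25, 0.22 and 0.22 with those scalings. The genes next to the 2-fold line were AT1G07750 (1.0001) just inside and ELC-Like (1.0000) just outside on the higher side, and AT1G27290 (-1.0001) and RUP1 (-0.9995) on the lower side.

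Much of what separated the double from the triple mutant also separated Col-0 from rdr6-11, in other libraries. Of the 1871 genes higher in the double mutant, 469 were higher in Col-0 too, which is 25.1% of this list and 61.4% of the Col-0 list. Of the 1737 lower genes 445 were lower in Col-0 too, 25.6% of this list and 72.0% of the other. With total nuclear counts the shared part was 15.3% of the higher and 38.2% of the lower list. Only 22 genes were at least 2-fold different in opposite directions, against 914 in the same direction. Among 1354 genes measured in both that differed at least 2-fold between Col-0 and rdr6-11, 93.1% had the same sign in the double over triple ratio. Across the 13235 genes measured in both, Pearson's r was 0.68 and Spearman's rho 0.63. These are descriptions across genes, which are not independent replicates, and the points share the scaling and the counting pattern of the rdr6-11 libraries. Conversely, 641 of the higher and 1135 of the lower genes were measured in Col-0 and rdr6-11 and were under 2-fold there. Another 756 of the higher genes were not measured there at all. Without the genes that differed between Col-0 and rdr6-11, 1397 genes were higher and 1275 lower among 14288.

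**Figure D1:**
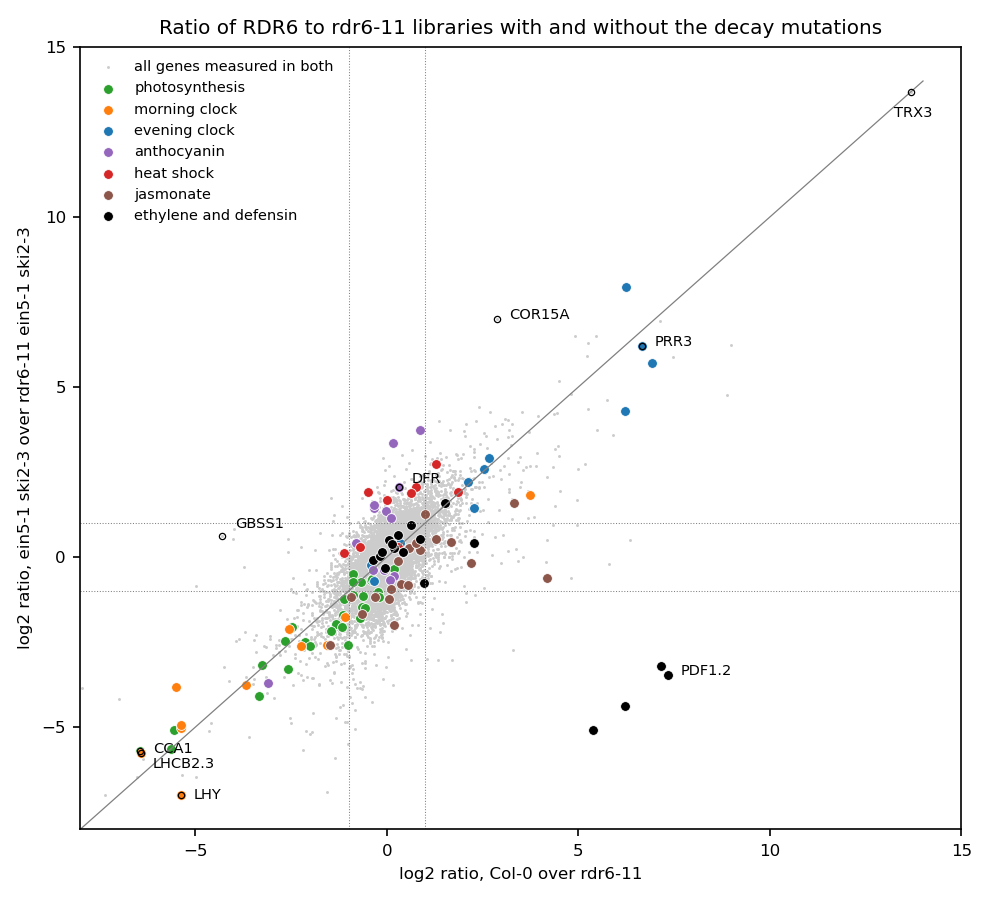
Log2 ratio of the double over the triple mutant (vertical) against that of Col-0 over rdr6-11 (horizontal), 1 point a gene for the 13235 genes measured in both comparisons, with list members in colour, 9 genes named and dotted lines at 2-fold. Clock, photosynthesis and TRX3 points lie near the diagonal, the defensin genes lie at the lower right (PDF1.2 at -3.46 vertically and 7.33 horizontally), and most anthocyanin and heat shock points lie above it. PAL1, C4H, FLS1, TTG1, MYBL2 and HSC70-1 lie on or below the diagonal, and MYBL2 (-3.09) and HSFB1 (1.86) are far from a horizontal value of 0.

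The levels in all 6 libraries were used to sort the called genes further, by a description chosen after the values were seen. A gene was placed in a class if its level lay at least 2-fold outside that of every other library. The classes overlap, and a gene that met several definitions was placed in a single class. The triple mutant classes took precedence, then the double mutant classes, then those of both rdr6-11 libraries. Of 15749 genes with at least 100 reads in any library, 223 were classed higher in both rdr6-11 libraries (1.42%) and 271 lower (1.72%). The double mutant classes held 415 higher (2.64%) and 407 lower (2.58%) genes. The triple mutant classes held 13 higher (0.0825%) and 29 lower (0.184%) genes. Genes placed in the double mutant classes thus made up 22.2% of the higher calls and 22.7% of the lower ones. Those placed with both rdr6-11 libraries made up 14.2% and 12.8%. These shares depend on the order of precedence. AT1G13650, placed as lower in the double mutant, was at 53.1 and 48.3 scaled CPM in both rdr6-11 libraries and at most 1.58 elsewhere. ATC, placed as lower in the triple mutant, was at 34.0 in the double mutant and at most 1.24 elsewhere.

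The targeted genes came first as a check of the labels. RDR6 stood at 41.0 scaled CPM in the double and 15.9 in the triple mutant, a log2 ratio of 1.37 (1.16 to 1.58). It was at 46.1 in Col-0 and 13.5 in rdr6-11, so both libraries labelled with the allele were lower than all others. EIN5 transcripts were at 43.8 in the double and 26.6 in the triple mutant (0.72, 0.55 to 0.89), although both carry ein5-1, and at 63.7 in Col-0. SKI2 was at 23.0 and 17.3 (0.41, 0.19 to 0.64), against 29.7 in Col-0. Reads of all 3 genes remained in the mutants, and the counts do not show whether those transcripts are functional.

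Many circadian clock genes split the libraries by the rdr6-11 allele. Of 12 morning clock genes measured, 10 were at least 2-fold lower in the double than in the triple mutant and 1 was higher, with a median of -3.20. Of 11 evening genes 8 were higher and 0 lower, with a median of 2.60. In Col-0 over rdr6-11 the same lists gave 10 lower and 1 higher of 11 (median -3.67), and 8 higher of 11 (median 2.53). The medians of the difference were 0.12 and 0.05, or -0.13 and -0.38 with low counts at the floor. Of the morning genes, 7 reached 100 reads only in the triple mutant of the pair and 1 only in the double, and of the evening genes 5 only in the double mutant, where they are high, so the counts are a description. With 100 reads in all 4 libraries, 2 of 2 morning genes were lower (median -1.93) and 2 of 5 evening genes were higher (median 0.40). Without the genes called between Col-0 and rdr6-11 only 1 morning gene (0.54) and 3 evening genes (median -0.24) were left.

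CCA1, a Myb-like repressor at the core of the morning loop, had 1.00 scaled CPM in the double and 56.8 in the triple mutant, with 0.532 in Col-0 and 48.9 in rdr6-11. Its ratio was -5.77 (-6.56 to -5.17). LHY, its partner, had 3 reads in the double and 395 in the triple mutant (-7.00, -9.58 to -5.74), with 3 in Col-0 and 193 in rdr6-11. PRR9, a pseudo-response regulator of the morning, had 7 and 209 reads (-5.02), and LNK2, a coactivator of evening genes, 82 and 2134 (-4.95). In each of these genes the 4 libraries without rdr6-11 were low and both with it were high. The exception among the listed morning genes was RVE2, a Myb-like gene of the same family, which was at 22.7 and 6.43 (1.81) and at 37.2 in Col-0 and 2.76 in rdr6-11.

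On the evening side TOC1, a repressor of CCA1 and LHY, was at 192 in the double and 31.8 in the triple mutant (2.60, 2.46 to 2.73), and at 198 in Col-0 and 34.2 in rdr6-11. ELF3, a component of the evening complex, was at 123 and 26.4 (2.22), and LUX, its DNA-binding partner, at 26.7 and 3.53 (2.91). ELF4, the remaining member of that complex, had 174 reads in the double and 0 in the triple mutant, at least 48.4-fold higher against the floor of 3 reads a library, and 136 in Col-0 and 2 in rdr6-11. FKF1, a blue light receptor, had 910 and 14 reads (5.70, 5.01 to 6.64). GI, which acts in the late day, was under 2-fold in both backgrounds (-0.24 and -0.42), as were ZTL and TCP21.

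Clock output genes were sorted in the same way. Of 13 clock output genes 9 were lower and 3 higher in the double mutant (median -2.22), and 10 and 3 in Col-0 over rdr6-11 (median -2.43). For 3 of the 13 only the triple mutant of the pair reached 100 reads. Among the 4 with 100 reads in all 4 libraries the direction turned, with 3 higher and 1 lower (median 1.38). GRP7, an RNA-binding protein that oscillates daily, was at 371 in the double and 14.9 in the triple mutant, with 729.5 in Col-0 and 13.6 in rdr6-11 (4.63, 4.45 to 4.83). CAT2, a catalase of the morning, was at 68.9 and 536 (-2.96), and CAT3, a catalase of the evening, at 2139.7 and 719 (1.57). Some of the lowest genes outside the lists had this arrangement too. AT3G12320, which is uncharacterized, had 9 and 1046 reads (-7.01), CIPK20, a calcium-regulated kinase, 13 and 1007 (-6.46), and AT5G06980 12 and 650 (-5.94). In Col-0 over rdr6-11 they stood at -7.36, -6.54 and -6.35. AT1G13650, uncharacterized (-6.42 and -5.34), LEA3, with 2 and 201 reads (-6.48, -9.97 to -5.04), and GDPD6, with 1 and 110 reads (-6.27, -12.36 to -4.53), were the other lowest genes that were also lower in Col-0 than in rdr6-11.

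Photosynthesis genes were lower in the double mutant. Of 29 measured, 23 were at least 2-fold lower and 0 higher, with a median of -1.78, and every member had at least 100 reads in all 4 libraries compared. In Col-0 over rdr6-11, 16 of 29 were lower (median -1.11), and 2 of 29 were lower in the difference (median -0.53). Of the 13 members under 2-fold between Col-0 and rdr6-11, 7 were still lower in the double mutant. LHCB2.1, an antenna protein of photosystem II, was at 72.2 in the double and 3620.2 in the triple mutant (-5.65, -5.73 to -5.57), and at 80.5 in Col-0 and 4006 in rdr6-11. LHCB3 was at 341 and 5750.1 (-4.08), with 658 and 6611 in the other pair. Reads of such antenna genes may be divided among near-identical copies, and the split is uncertain. For Rubisco the pattern was another one. RBCS1A, a small subunit gene, was at 3844 in the double mutant and between 6691 and 10548 in the 5 other libraries (-1.46). RBCS3B was at 1304 in the double mutant, at least 2-fold below all others (-1.78), as were NPQ4, which senses lumen pH in photoprotection (-1.49), and LHCB4.3 (-2.57). The ratios of these 3 in Col-0 over rdr6-11 were -0.69, -0.58 and -1.03.

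The gene with the largest ratio was TRX3 (AT5G42980), a cytosolic thioredoxin of the h type. It had 9302 reads in the double mutant, at least 2589-fold more than the floor, and 0 in the triple mutant. In Col-0 it had 4641, in ein5-1 6189 and in ski2-3 5766, while rdr6-11 also had 0. Next to it in the annotation, UBC18, a ubiquitin-conjugating enzyme, had 455 and 70 reads (2.43, 2.07 to 2.82), with 174 in Col-0 and 26 in rdr6-11 (3.19). COP8, the next gene on the other side, was at 29.8 and 27.4 (0.12) and at 36.5 and 32.3 in the other pair. Both libraries with the rdr6-11 allele thus lacked TRX3 reads, with decay intact or impaired, and Col-0 was at least 2149-fold above rdr6-11. Among the other h-type thioredoxins, TH8 was higher in the double mutant (128 against 10 reads, 3.34), and TRX5 was at 26.0 and 34.9 (-0.42).

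Precursors of tasiRNAs were lower where RDR6 was present. Of 5 measured, 0 were higher and 4 were at least 2-fold lower in the double than in the triple mutant (median -2.31), and in Col-0 over rdr6-11 all 4 measured were lower (median -1.75). TAS2 was at 8.59 in the double and 56.1 in the triple mutant (-2.70, -2.96 to -2.47), and at 14.4 in Col-0 and 58.9 in rdr6-11. TAS1C was at 11.1 and 55.1 (-2.31), and at 12.2 and 60.3. TAS3, the source of the siRNAs against auxin response factors, was at 2.16 and 15.8 (-2.85, -3.39 to -2.39). Its difference of -1.60 (-2.23 to -0.98) was the only one in the list to reach 2-fold, since Col-0 and rdr6-11 were at 6.49 and 15.5. TAS1A, TAS1B and TAS1C are related copies whose reads can be shared. TAS3B and TAS4 had at most 18 reads in any library.

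The mRNAs that tasiRNAs target showed smaller ratios. Of 15 measured, 3 were higher and 3 lower in the double mutant, with a median of -0.44, and 3 of 9 were lower in Col-0 over rdr6-11 (median -0.82). ETT, also called ARF3, was at 46.4 in the double and 62.6 in the triple mutant, with 36.5 in Col-0 and 62.7 in rdr6-11 (-0.43, -0.57 to -0.30). ARF4 was at 65.4 and 116 (-0.83, -0.94 to -0.73), against 35.1 and 102 in the other pair. Both triple-mutant levels were close to those in rdr6-11, while the double mutant lay above Col-0. The lower members were AT1G63130, annotated as a tetratricopeptide repeat-like protein (-1.49), AT5G18040, annotated as a tasiRNA target (-1.34), and AT1G12775, a pentatricopeptide repeat gene (-1.27). Repeat genes of this kind have close copies, so their counts are uncertain. The 3 higher members were ARF2 (1.104), and PAP1 and PAP2, which are activators of anthocyanin synthesis and are described with that group.

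**Figure D2:**
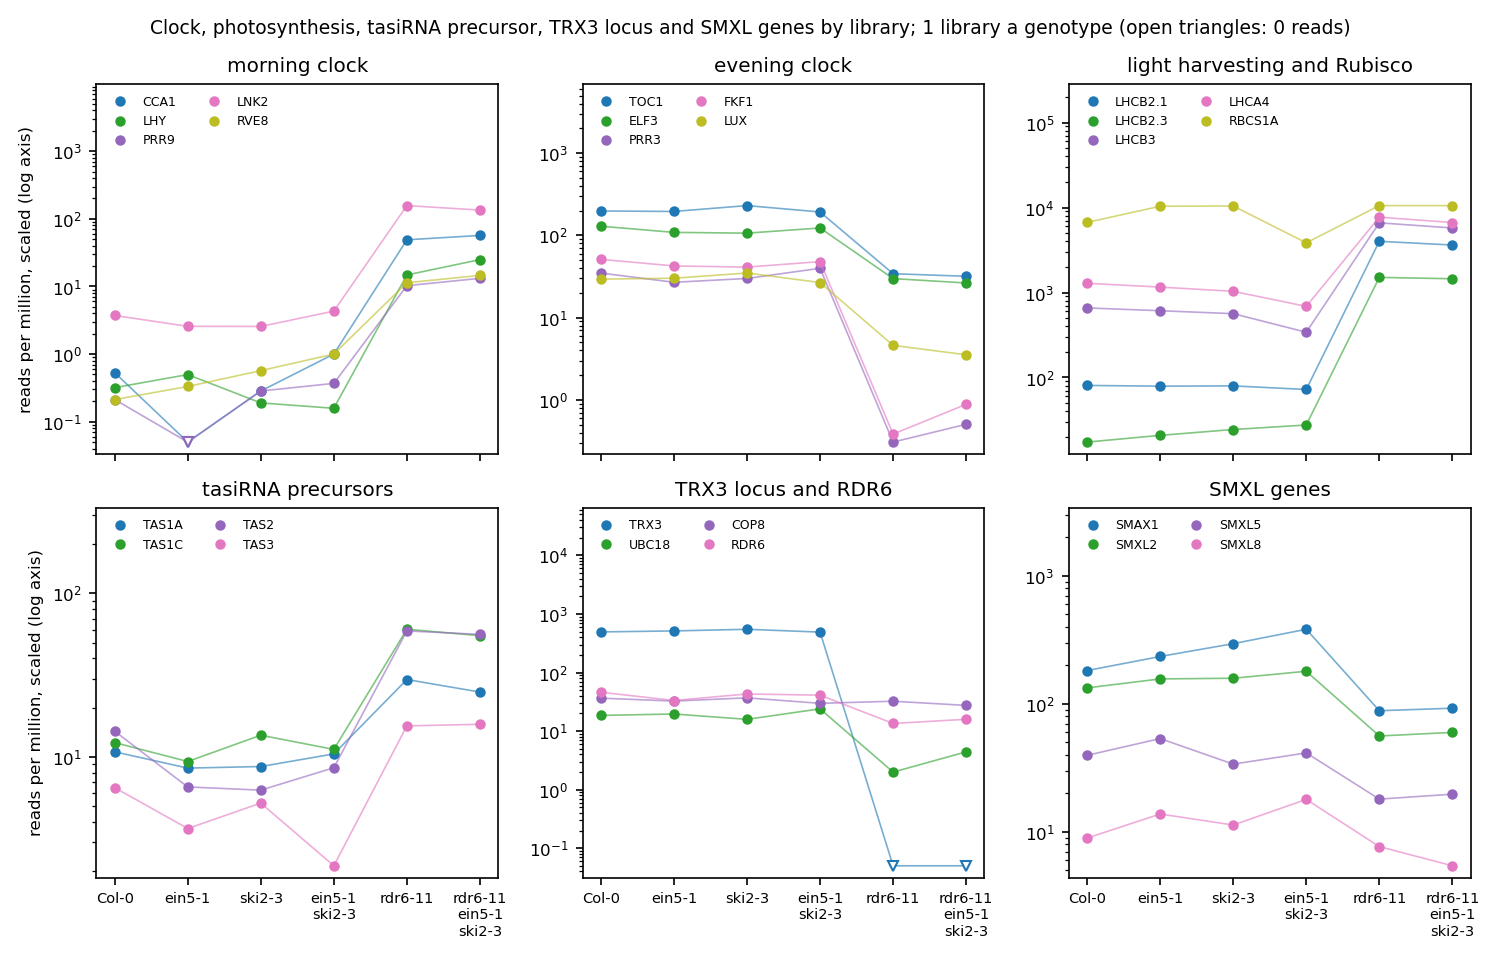
Scaled CPM (log axis) of clock, photosynthesis, tasiRNA precursor, TRX3 locus and SMXL genes in the 6 libraries, 1 point a library, with open triangles at the lower edge for 0 reads. In the clock, antenna and precursor panels both rdr6-11 libraries are together on one side, as for LHCB2.1 at 4006 and 3620.2 against 72.2 to 80.5 in the other 4.

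Genes reported by the study as sources of siRNAs in the double mutant did not move as 1 group. The list was chosen by the study on plants of these genotypes, so its direction is not independent evidence. NIA1, a nitrate reductase, was at 107 in the double and 392 in the triple mutant (-1.87), with 250.3 in Col-0 and 429.6 in rdr6-11 (-0.78). The double mutant was the lowest of all 6 libraries for NIA1, and the difference of the ratios was -1.09 (-1.19 to -0.99). That call depended on scaling. The authors' RPKM of NIA1 were 15.5 in the double and 51.0 in the triple mutant, with 29.6 in Col-0 and 50.6 in rdr6-11. From these values the difference fell just under 2-fold. NIA2, the major nitrate reductase of leaves, was at 961 and 1843 (-0.94, -0.97 to -0.91), with 1487 and 1614 in the other pair, so it stayed just under 2-fold. The SMXL genes on the list went the other way. SMXL5 was at 41.3 and 19.7 (1.07, 0.88 to 1.26), with 39.6 in Col-0 and 18.0 in rdr6-11, and SMXL4 had 204 and 126 reads (0.43). Their differences of -0.07 and -0.56 were under 2-fold.

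The SMXL family as a whole was not lower in the double mutant. Its members are repressors of strigolactone and karrikin signalling or regulators of phloem development. Of 8 measured, 4 were higher and 0 lower (median 1.03), 3 of 8 were higher in Col-0 over rdr6-11 (median 0.96), and the median difference was 0.19. SMAX1, which represses karrikin responses, was at 382 in the double and 92.4 in the triple mutant (2.05, 1.97 to 2.13), and at 182 and 88.3 in the other pair. SMXL8, of the strigolactone branch, was at 17.9 and 5.42 (1.72), with 8.94 and 7.66 in the other pair, the largest difference of the family at 1.49 (0.96 to 2.03). SMXL2 was at 179.7 and 59.8 (1.59, and 1.25 in Col-0 over rdr6-11) and SMXL7 had 1931 and 1314 reads (0.30).

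Most heat shock genes were high in the double mutant and low elsewhere. Small heat shock proteins are chaperones that hold unfolding proteins, and they are almost silent in unstressed leaves. HSP17.6A had 1218 reads in the double and 10 in the triple mutant (6.59, 5.78 to 7.73), with 0 in Col-0, 0 in ein5-1, 4 in ski2-3 and 4 in rdr6-11. HSP21, a chaperone of the chloroplast, had 523 reads in the double mutant, 1 in ein5-1 and 0 in each of the other 4, at least 146-fold above the triple mutant. HSP22 had 738 and 0 reads, at least 205-fold higher, with 6 in rdr6-11. NUDT24, a Nudix hydrolase outside the list, had 1685 reads in the double mutant, 4 in the triple mutant and 0 in Col-0 and rdr6-11 (8.26, 7.10 to 10.34). Larger chaperones with reads in all libraries followed. HSP70 was at 202 in the double and 48.6 in the triple mutant (2.05, 1.94 to 2.17), between 14.4 and 29.1 in the others, and HSP101, which resolves aggregates, was at 97.7 and 26.6 (1.87), between 11.0 and 19.1 in the others. The double mutant was at least 2-fold above every other library for both. HSC70-1, the constitutive relative, was at 2111 and 1735 (0.28).

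Among 24 measured heat shock genes, 21 reached 2-fold upward and 0 downward (median 2.39). For 16 of them the double mutant was the only library of the pair with 100 reads, which by itself favours a higher ratio, so the count is a description. Only 4 had 100 reads in all 4 libraries, and 2 of those were higher. In Col-0 over rdr6-11, 9 were measured, 2 higher and 1 lower (median 0.29), and the difference was upward for 18 of 24 (median 1.67, or 1.68 with low counts at the floor). The double mutant alone was the high library for 18 members. The other 3 higher members were HSFA7A, HSFB1 and DREB2A. The heat shock factors HSFA7A and HSFB1 stood at 1.75 and 1.93, and at 0.19 and 1.86 in Col-0 over rdr6-11. DREB2A, an activator of dehydration and heat genes, had 238 and 18 reads (3.42), with 81 in Col-0 and 5 in rdr6-11. Copies of the small heat shock genes can share reads.

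Anthocyanin genes were the second group that stood out in the double mutant. Anthocyanins are red pigments made from phenylalanine by way of chalcone synthase. TT4, which encodes that enzyme, was at 519 in the double and 192 in the triple mutant (1.43, 1.37 to 1.49), and at 81.3 in Col-0, 61.0 in ein5-1, 149 in ski2-3 and 102 in rdr6-11. DFR, the reductase that commits flux to anthocyanins, was at 169 and 40.4 (2.07, 1.95 to 2.19), with 28.9 in Col-0 and 23.3 in rdr6-11. GSTF12, needed to move the pigment to the vacuole, was at 119 and 11.7 (3.35), and UF3GT, a glycosyltransferase, at 139 and 8.07 (4.098). The regulators PAP1 and PAP2, Myb activators, had 688 and 31 reads (4.19) and 448 and 20 reads (4.19), and TT8, their bHLH partner, 406 and 26 (3.67). In all of these the double mutant was the highest library and the triple mutant was within the range of the others or next above it.

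Members at the entry of the pathway were under 2-fold. PAL1 stood at -0.39 and C4H at -0.56, and both also serve lignin and other phenolics. FLS1, which makes flavonols, was at -0.68. MYBL2, a repressor of anthocyanin synthesis, was at 8.53 in the double and 112 in the triple mutant (-3.71, -3.95 to -3.48), but at 10.3 in Col-0 and 88.3 in rdr6-11, so it followed both rdr6-11 libraries (-3.09). Of 20 members measured, 14 were higher and 1 lower (median 1.799), against 0 and 1 of 13 in Col-0 over rdr6-11 (median -0.02), and the difference was upward for 15 of 20 (median 1.76). The double mutant alone was high for 13 of them. For 5 of the 20 only the double mutant reached 100 reads. Among the 8 with 100 reads in all 4 libraries, 4 were higher, with a median of 0.39.

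Genes of abscisic acid, cold and drought responses were higher as well, but here part of the ratio was shared with Col-0 over rdr6-11. Of 19 measured, 15 were higher and 0 lower (median 1.84), against 8 and 1 of 14 in Col-0 over rdr6-11 (median 1.21), and the difference was upward for 10 of 19 (median 1.02). For 7 of the 19 only the double mutant of the pair reached 100 reads, and among the 9 with 100 reads in all 4 libraries 6 were higher (median 1.59). KIN2, a cold-induced hydrophilic protein, was at 369 in the double and 24.5 in the triple mutant (3.91, 3.77 to 4.06), and at 216 and 27.0 in the other pair (3.00). COR15B (4.22 and 4.37) and RD29A (1.94 and 2.01) were almost equal in the 2 comparisons. COR15A, which protects chloroplast membranes in the cold, was at 167 and 1.26 (7.01, 6.42 to 7.77), with 19.3 in Col-0 and 2.60 in rdr6-11 (2.87), a difference of 4.14 (3.32 to 4.96).

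For COR15A and at least 10 other members of the same list the double mutant stood at least 2-fold above every other library. HAI2, LTP3, LTP4 and GolS2 are outside the list. HAI2, a phosphatase induced by abscisic acid, had 747 reads in the double and 10 in the triple mutant (5.88, 5.08 to 7.03), with 12 in both Col-0 and rdr6-11. Its relative HAI1 was at 44.3 and 2.27 (4.26), with 16.4 and 1.38 in the other pair, so that both rdr6-11 libraries were low. HB-7, a homeobox factor of dry leaves, was at 48.3 and 3.53 (3.76), between 2.99 and 6.07 in the others. NCED3, the enzyme that limits abscisic acid synthesis under drought, was at 40.7 and 13.5 (1.59, 1.37 to 1.82), between 9.35 and 13.9 in the others. Lipid transfer protein genes were at the top of the whole comparison. LTP4 had 2232 reads in the double and 0 in the triple mutant, at least 621-fold higher, and LTP3 806 and 10 (5.99). They are adjacent relatives that can share reads. GolS2, which makes galactinol in drought, was at 54.7 and 1.39 (5.26).

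Sugar and starch genes divided between the patterns. GPT2, a translocator that imports glucose phosphate into plastids when sugar is abundant, had 4989 reads in the double and 36 in the triple mutant (6.83, 6.38 to 7.37), with 50 in Col-0, 54 in ein5-1, 120 in ski2-3 and 20 in rdr6-11. APL3, a sugar-induced subunit of ADP-glucose pyrophosphorylase, was at 177 and 27.6 (2.68), between 17.7 and 22.4 in the others. SWEET13, a sucrose exporter, had 565 and 8 reads (5.78), while SWEET12 was at 163 and 9.15 (4.15), with 83.5 and 5.36 in the other pair (3.95).

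The starch-degrading enzymes SEX1 and ISA3 were higher in both comparisons. SEX1, the glucan dikinase that opens the granule surface, was at 781 in the double and 161 in the triple mutant (2.28, 2.22 to 2.34), and at 611 and 177 in the other pair (1.79). The debranching enzyme ISA3 was at 384 and 19.8 (4.27), with 137 and 21.1 in the other pair (2.70). GBSS1, which makes amylose, was unlike the other clock outputs. It was at 116 and 75.8 (0.62), but at 3.62 in Col-0 and 71.7 in rdr6-11 (-4.29), a difference of 4.91 (4.41 to 5.41). Of 22 members 11 were higher and 2 lower (median 0.96, and 1.12 with total nuclear counts), against 8 and 2 of 20 in Col-0 over rdr6-11 (median 0.28).

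Phosphate starvation genes showed a smaller set of the same kind. Of 8 measured 4 were higher and 0 lower (median 1.23), against 0 and 1 of 4 (median -0.16), and 3 of the 8 reached 100 reads only in the double mutant. PS2, a phosphatase, had 633 and 50 reads (3.39, 2.99 to 3.85), with 17 in Col-0 and 20 in rdr6-11. PAP17, an acid phosphatase, was at 42.9 and 11.4 (1.91), between 4.48 and 8.92 in the others. With 100 reads required in all libraries 2 members were left, at a median of 0.12.

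A tandem array was almost without reads in the double mutant alone. AT4G15660, AT4G15670, AT4G15680, AT4G15690 and AT4G15700, annotated as thioredoxin superfamily proteins, follow each other on chromosome 4. AT4G15690 had 4 reads in the double and 468 in the triple mutant (-6.90, -9.01 to -5.76), with 94 in Col-0, 121 in ein5-1, 81 in ski2-3 and 385 in rdr6-11. AT4G15670 had 4 and 234 reads (-5.90), AT4G15680 11 and 437 (-5.48), AT4G15660 7 and 212 (-5.04) and AT4G15700 25 and 434 (-4.34). In Col-0 over rdr6-11 the 5 genes stood between -0.82 and -1.56. The differences ran from -3.20 to -5.34. Similar copies can share reads, and the counts per copy are uncertain. AT4G15650, before the array, had at most 4 reads.

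Jasmonate genes were lower in the double than in the triple mutant relative to the other pair. Jasmonates are wound hormones made from plastid lipids, and JAZ proteins repress the response. Of 21 measured, 2 were higher and 7 lower in the double mutant (median -0.60), against 5 and 1 of 20 in Col-0 over rdr6-11 (median 0.48). The difference was downward for 12 of 21 and upward for 0 (median -1.05), or -0.68 with total nuclear counts. With 100 reads in all 4 libraries 2 of 18 were higher and 5 lower in the double mutant (median -0.15). JAZ9 was at 50.5 in the double and 201 in the triple mutant (-1.99, -2.10 to -1.88), with 255 in Col-0 and 223 in rdr6-11. OPR3, the reductase that completes jasmonate synthesis in the peroxisome, was at 23.7 and 41.9 (-0.82), with 106 and 72.8 in the other pair. VSP1, a storage protein that marks the response, was at 6.79 and 10.3 (-0.60), with 31.1 in Col-0 and 1.69 in rdr6-11 (4.17), a difference of -4.78 (-5.48 to -4.08). LOX2, the lipoxygenase that starts the pathway in leaves, was higher in the double mutant at 2809.5 and 938 (1.58), but by less than in Col-0 over rdr6-11 (3.31). MYC2, the activator of the response, was also higher (1.25 and 0.99).

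Plant defensin genes gave the largest downward differences among genes with at least 10 reads in each of the 4 libraries. PDF1.2, an antifungal peptide induced by ethylene and jasmonate together, had 199 reads in the double and 1832 in the triple mutant (-3.46, -3.68 to -3.25). In Col-0 it had 1567 and in rdr6-11 13 (7.33), with 617 in ein5-1 and 11258 in ski2-3. PDF1.3 had 19 and 345 reads (-4.39), and 557 and 10 in the other pair (6.21). PDF1.2c had 90 and 702 (-3.21), and 1294 and 12 (7.17). The differences were -10.79, -10.60 and -10.38. These genes are near-identical copies, so that they are not separate observations. TPS04, which makes a volatile terpenoid precursor, had 51 reads in the double and 288 in the triple mutant (-2.74), with 705 and 100 in the other pair (3.29). The ethylene receptors and signalling genes themselves were all under 2-fold, from -0.32 (EIN4) to 0.93 (EIN2). In the whole ethylene and defensin list, 1 of 18 measured was higher and 4 were lower (median 0.14, from -5.09 to 1.60). In Col-0 over rdr6-11, 6 of 18 were higher and 0 lower (median 0.53). The difference was downward for 6 and upward for 0 (median -0.09). For 4 members only the triple mutant of the pair reached 100 reads. With 100 reads in all 4 libraries, 0 of 11 were higher or lower (median 0.38).

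Nitrate assimilation genes went both ways, and most were under 2-fold. Of 17 measured, 5 were lower and 3 higher (median -0.74), against 0 and 4 in Col-0 over rdr6-11 (median 0.13), and the difference was downward for 7 (median -0.48). Besides NIA1, GLN2, the plastid glutamine synthetase, was at 406 in the double and 841 in the triple mutant (-1.05, -1.09 to -1.01), with 907 and 887 in the other pair. GLU1, the glutamate synthase of photorespiration, was at 605 and 1263 (-1.06), with 1096 and 1042. LBD38, a repressor of nitrogen genes, was at 17.9 and 65.6 (-1.87). GLN1.1, a cytosolic glutamine synthetase, was higher at 260.2 and 121 (1.101). For GLN2 and GLU1 the double mutant was the lowest of the 6 libraries and Col-0 and rdr6-11 were close together.

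**Figure D3:**
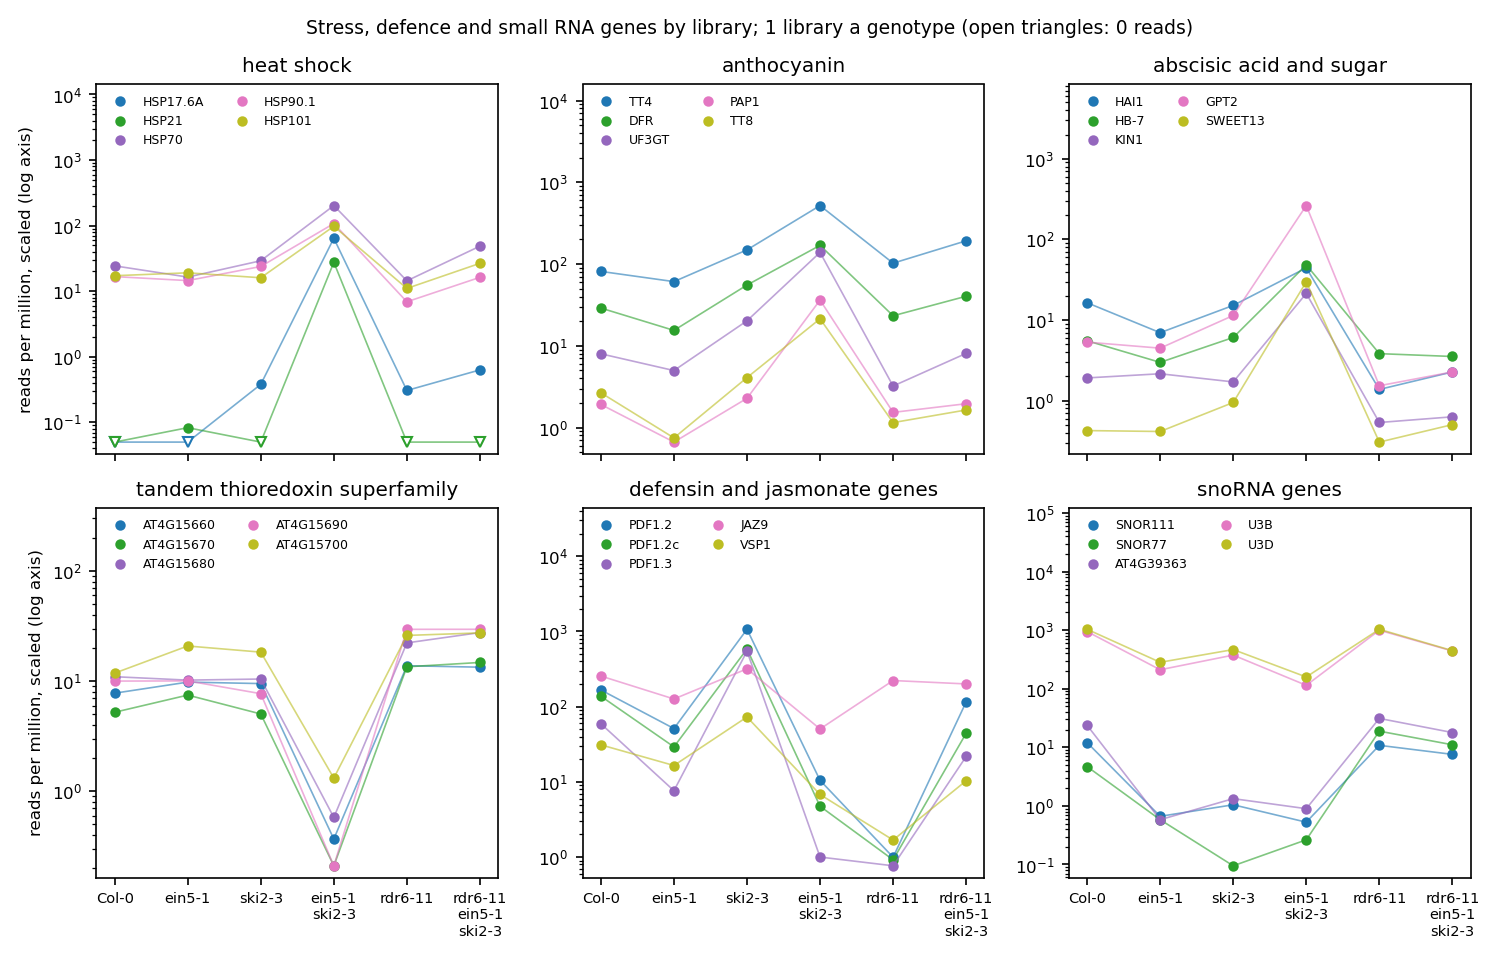
Scaled CPM (log axis) of stress, defence and small RNA genes in the 6 libraries, 1 point a library, with open triangles at the lower edge for 0 reads. The heat shock, anthocyanin and abscisic acid or sugar genes peak in the double mutant, the tandem genes have their lowest point there (AT4G15690 at 0.211 against 7.69 to 29.5), and the defensin genes are low in both the double mutant and rdr6-11.

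Some factors of RNA silencing were higher in the double mutant. Among those measured, 7 of 21 reached 2-fold upward and 0 downward (median 0.53), against 1 and 0 of 19 in Col-0 over rdr6-11 (median 0.14). RDR6 itself is in both counts. AGO2, an Argonaute of stress and virus defence, was at 73.7 in the double and 29.6 in the triple mutant (1.31, 1.16 to 1.47), between 16.5 and 32.7 in the others. RDR1, a related polymerase, was at 84.8 and 34.8 (1.29), SGS3, the partner of RDR6, at 25.2 and 11.9 (1.08), and DCL1, the Dicer of microRNAs, at 102 and 44.4 (1.198). In Col-0 over rdr6-11, AGO2, RDR1, SGS3 and DCL1 stood at 0.58, 0.74, -0.04 and 0.75. SGS3 and DRB4 (1.02) also passed 2-fold in the difference, at 1.11 and 1.04, and DRB4 had only 132 and 54 reads. AGO1, DCL2 and DCL4, which act in the siRNA pathway, stood at 0.22, 0.35 and 0.53.

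Factors of RNA decay were mostly level. Of 27 measured 3 were higher and 1 lower (median 0.10), against 2 and 0 of 25 (median 0.10). Over all genes measured 12.0% were higher and 11.1% lower in the double mutant, so the higher count is near that share. Higher levels were seen for the deadenylases CAF1a at 168 and 39.3 (2.097, 1.97 to 2.22) and CAF1b at 35.1 and 7.76 (2.17). Both were also higher in Col-0 over rdr6-11 (1.42 for each). UPF2 (AT2G39260), of nonsense-mediated decay, was the other higher gene (1.09). It stood at 0.94 in Col-0 over rdr6-11, a difference of 0.14. LSM1A, of the decapping complex, was lower at 8.69 and 19.7 (-1.18, -1.46 to -0.91), with 18.5 and 20.5 in the other pair.

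Targets of microRNAs were examined as a contrast. Of 53 measured, 15 were higher and 1 lower (median 0.36), against 2 and 0 of 42 (median 0.10), and 7 of the 53 reached 100 reads only in the double mutant. The difference was upward for 5 of 53 and downward for 5 (median 0.23). With 100 reads in all 4 libraries, 8 of 38 were higher and 1 lower (median 0.25). AGO2 and DCL1, among the higher members, are in the silencing list too, so the 2 lists are not separate. ARF10, an auxin response factor, was at 66.6 in the double and 20.8 in the triple mutant (1.68, 1.51 to 1.86), between 11.6 and 26.7 in the others. NF-YA5, a drought-responsive CCAAT factor, had 276 and 65 reads (1.82), and TOE1, a repressor of flowering, was at 58.4 and 28.0 (1.06). SNZ, of the same AP2 group as TOE1, was the lower member (-1.98). The copper-dependent genes CSD1, CSD2 and CCS, targets of one microRNA, formed a set of their own. CSD2, a plastid superoxide dismutase, was at 278 and 436 (-0.65, -0.70 to -0.60), but at 422 in Col-0 and 215 in rdr6-11 (0.97), a difference of -1.62 (-1.71 to -1.54). The differences of CSD1 and CCS were -1.34 and -1.60, with neither pair at 2-fold by itself.

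Small structural RNAs gave a pattern of another kind. All 6 small nucleolar RNA genes measured were at least 2-fold lower in the double than in the triple mutant (0 higher, median -2.85). In Col-0 over rdr6-11, 1 was higher and 2 were lower of 7 (median -0.08). SNOR111, AT4G39363 and SNOR77 met the read minimum only in the triple mutant of the pair, where they are high, so the count is a description. U49.1, below the minimum in both, went the other way with 32 and 11 reads (1.24). SNOR105, U3B and U3D met it in both libraries and stood at -1.04, -1.94 and -1.49. SNOR111 had 10 reads in the double and 120 in the triple mutant (-3.75, -4.94 to -2.92), with 113 in Col-0, 8 in ein5-1, 11 in ski2-3 and 141 in rdr6-11. U3B was at 114 and 439.7 (-1.94), with 944 in Col-0, 211 in ein5-1, 374 in ski2-3 and 997 in rdr6-11. For SNOR111 the triple mutant was with Col-0 and rdr6-11, although it carries the same decay alleles as the double mutant. Of 9 small nuclear RNA genes 7 were lower (median -1.31), against 1 lower of 8 (median -0.14).

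Early response genes, which touch or wounding induce within minutes, went both ways. Of 15 measured 4 were higher and 6 lower (median 0.18), against 3 and 4 of 16 in Col-0 over rdr6-11 (median -0.07). TCH4, a touch-induced wall enzyme, was at 72.7 in the double and 448 in the triple mutant (-2.62), with 273 in Col-0 and 709 in rdr6-11 (-1.38), while the ethylene response factor ERF105 was at 72.9 and 20.7 (1.82). Defence genes of salicylic acid were mixed too, with 2 higher and 3 lower of 14 (median -0.68). PR1, the usual marker, was at 16.7 and 61.7 (-1.88), with 5.75 and 20.7 in the other pair (-1.84). PR2 was higher at 122 and 41.1 (1.57). PAD3, which completes camalexin synthesis, was at 22.3 and 6.94 (1.68), with 67.9 in Col-0 and 2.14 in rdr6-11 (4.96).

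The lists left gave small counts, to be read beside 12.0% higher and 11.1% lower over all genes measured. Of 10 senescence genes 2 were higher and 4 lower (median -0.45), with NAP, a regulator of leaf senescence, at 9.96 and 35.0 (-1.81). Of 18 glucosinolate genes 3 were higher and 2 lower (median 0.06, and -0.04 for the 17 with 100 reads in all 4 libraries), with MYB28, an activator of the aliphatic branch, at 74.8 and 23.3 (1.68) and CYP79F1, an enzyme of that branch, at 63.9 and 153 (-1.26). Of 9 expansins 2 were lower (median -0.24), and of 7 sugar transporters 3 were higher and 2 lower (median -0.11). The floral repressor FLC had 200 and 74 reads (1.17), against 15 in Col-0 and 26 in rdr6-11, and the floral activator SOC1 was lower at 12.9 and 32.5 (-1.33). The root regulators SHR (0.63) and SCR (0.55), which leaves also express, were under 2-fold.

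**Figure D4:**
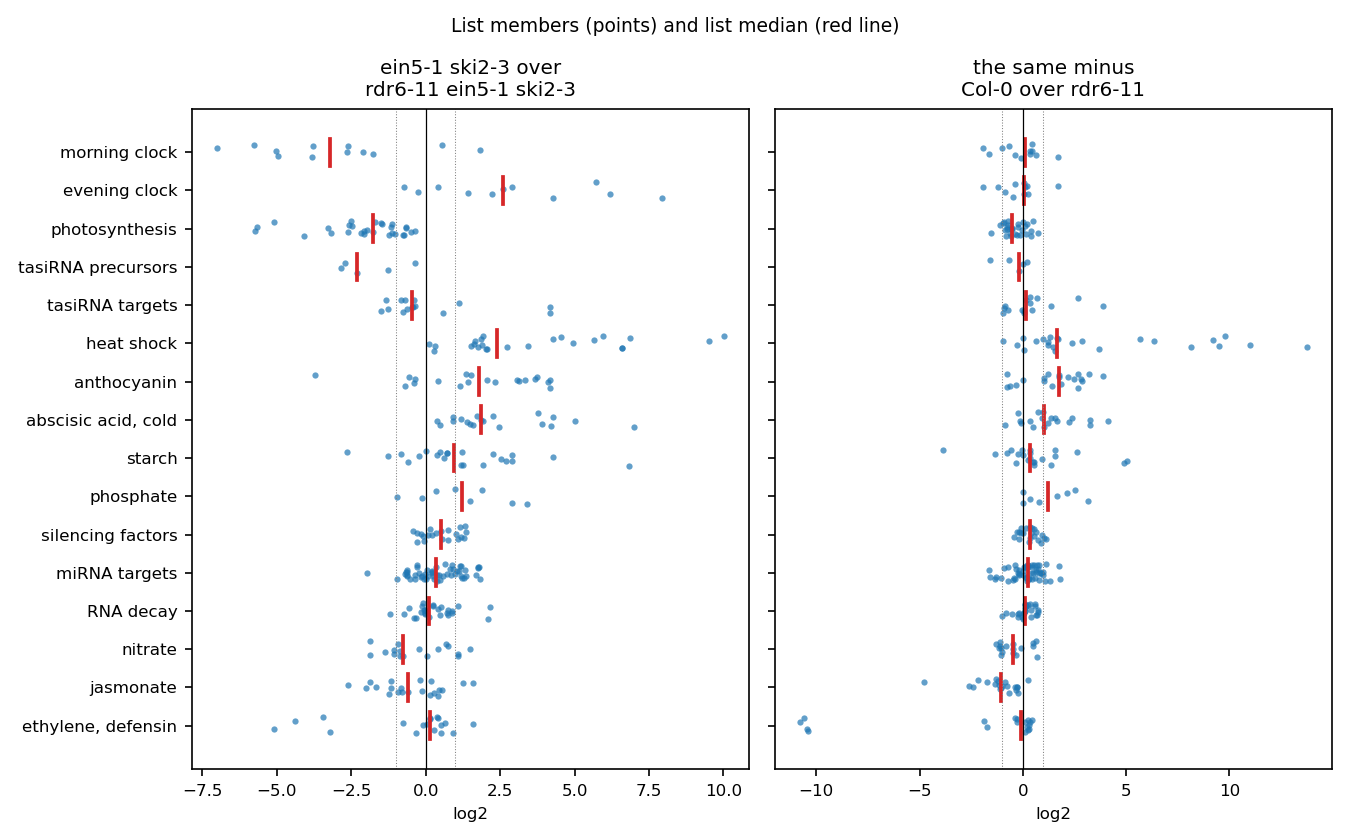
Log2 ratio of the double over the triple mutant (left) and its difference from Col-0 over rdr6-11 (right) for each measured member of 16 gene lists, 1 point a gene, with the list median as a red line and dotted lines at 2-fold. The clock medians of -3.20 and 2.60 lie near 0 on the right (0.12 and 0.05, or -0.13 and -0.38 with low counts at the floor), while those of heat shock (2.39 and 1.67) and anthocyanin (1.799 and 1.76) stay above 1.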

How the data were processed

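Aerial tissue gave 1 library a genotype. Ribosomal RNA was removed from 10 µg of RNA before sequencing, per the labels' protocols. The deposited table holds read counts per gene and, per the file headers, RPKM values and log2 ratios that the authors made from RPKM. BWA and the TAIR9 build are named in the submitters' processing notes, while the counting rule and use of strand are not given in the sources used here, so antisense or overlapping genes cannot be separated. A cell with no value was read as 0.

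Counts of 33323 nuclear genes received size factors from trimmed mean of M-values (TMM) over all 6 libraries (trims 0.3 and 0.05; Python 3.11.15, numpy 2.4.6, scipy 1.17.1), with a pseudocount of 0.5 scaled to the library. Effective sizes gave the scaled CPM, and 3 reads a library was the floor. Genes of ribosomal RNA (4) and transfer RNA (623) were then set aside. Ratios carry exact 95% Clopper-Pearson intervals. Differences of ratios carry normal intervals from Poisson variances, and were measured where the highest of 4 libraries had 100 reads. Intervals and floors cover counting error only, as PCR reads without molecular identifiers are not independent molecules. The scripts were tested on simulated data.

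The genes named are the 10 highest and 10 lowest of the comparison and of the difference (at least 10 reads in each of 4 libraries), the targeted genes and members of 29 lists. Members and lists were chosen with earlier results of these data known. AT4G15650, AT4G15660, AT4G15700, UBC18, COP8 and the small RNA genes were chosen after their values were seen. Names, classes and annotations come from RefSeq (TAIR10.1), which matched 32835 nuclear identifiers. Coordinates and sequences were not used here.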

Additional observations from a re-analysis of the deposited data

Results flagged for a closer look

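In the 2 backgrounds 22 genes were at least 2-fold different in opposite directions. Of these, 17 were lower in the double than in the triple mutant and higher in Col-0 than in rdr6-11, and 5 were the reverse. Listed here are only those among the 10 lowest differences of genes with at least 10 reads in each of the 4 libraries. The genes listed were all lower in the double than in the triple mutant and higher in Col-0 than in rdr6-11. With 1 library a genotype the difference between the backgrounds was not tested. The difference of the log2 ratios was -10.79 for PDF1.2, -10.60 for PDF1.3 and -10.38 for PDF1.2c, which are near-identical defensin copies. It was -6.03 for TPS04, a terpene synthase, -4.73 for AT2G35208, which has no class in the gene table, and -4.36 for AT3G23550, a MATE efflux protein. AT2G35208 was at 115 scaled CPM in Col-0 and at most 2.53 in ein5-1, ski2-3 and the double mutant, with 34.9 in rdr6-11 and 20.8 in the triple mutant, the arrangement that the small nucleolar RNA gene SNOR111 showed. AT3G23550 was at 12.0 in the double mutant and between 34.2 and 164 in the others.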

How the results depend on the processing

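Values here follow the order double over triple, Col-0 over rdr6-11, difference of the ratios. As reported, 3608, 1382 and 2196 genes were called, 51.9%, 55.3% and 44.4% of them higher, and 25.1% of the higher and 25.6% of the lower double over triple calls were shared with Col-0 over rdr6-11. With total nuclear counts the percent higher was 64.2, 35.7 and 78.7, and the shared percent 15.3 and 38.2. Without ribosomal RNA in those totals it was 65.6, 62.1 and 55.1, and 28.1% of the lower calls were shared. With organelle genes in the total, 63.5% and, for the difference, 58.9% were higher, and 21.6% and 29.7% were shared. The authors' RPKM gave 63.8% and, for the difference, 58.9%, with 21.6% and 29.7% shared. Median-of-ratios size factors gave 47.2% and 51.1% in the first 2 comparisons. The cause of these shifts was not tested.

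Read minimums changed the counts because other genes were measured. A minimum of 20 gave 2542 calls for Col-0 over rdr6-11 (51.6% higher) and 3751 for the difference (50.4%), with 28.5% of the higher calls shared. A minimum of 500 gave 1812, 563 (49.0%) and 944 (39.5%), with 17.3% shared. A minimum of 1 gave 11186 (56.6%), 9239 (30.5%) and 11572 (67.8%), with 22.9% and 39.1% shared. With 100 reads in every library, there were 2346 (47.1%), 809 (60.3%) and 1034 (25.2%), and 19.2% of the lower calls were shared. At 1.5-fold there were 7042, 3309 and 5286 genes, with 31.8% and 30.9% shared. At 4-fold there were 848 (54.8%), 310 (59.0%) and 387 (53.0%), with 21.7% of the higher calls shared. Halving the rdr6-11 and triple mutant counts gave 58.6%, 62.4% and 49.1% higher. Without the genes that differed between Col-0 and rdr6-11 the difference was 47.3% higher. That last setting left medians of 0.54 for 1 morning clock gene and -0.24 for 3 evening genes, opposite in sign to the full lists. The difference for ELF4, which has no read in the triple mutant, was -0.14 with a pseudocount of 5 and 1.69 with 0.5. Of the calls of named genes, total nuclear counts kept 356, lost 39 and gained 45, and the authors' RPKM kept 371, lost 24 and gained 28. Median-of-ratios size factors kept 390, lost 5 and gained 4. No paired analysis was possible because each genotype had 1 library, and for the same reason no library could be left out. Shares of promoters with a motif were not run. Depth limits genes near the floor, where a ratio is a bound or has a wide interval.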

Other observations

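Several of the genes with the largest positive ratios belong to no list. ATC, a relative of the flowering repressor TFL1, had 645 reads in the double and 0 in the triple mutant, at least 179.5-fold higher, with 8 to 15 in Col-0, ein5-1 and ski2-3 and 2 in rdr6-11. AHP4, a phosphotransfer protein of the cytokinin family, had 161 and 0 (at least 44.8-fold), and AT4G08570, annotated in the heavy metal transport superfamily, had 148 and 0 (at least 41.2-fold). AT2G38465 had 219 and 0 (at least 61.0-fold), with 49 to 70 in Col-0, ein5-1 and ski2-3 and 2 in rdr6-11.

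Among the genes with the largest upward differences, AT1G73040, annotated as a lectin, had 742 reads in the double mutant and 12 to 18 in the 5 others, and AT3G15650, annotated as a hydrolase, had 878 and 22 to 43. AT1G40104 and AT2G08986, both uncharacterized, were different in kind. They had 15 and 18 reads in Col-0 but 338 and 413 in rdr6-11, with 320 and 339 in the double mutant and, for AT1G40104, 150 in the triple mutant. On the downward side, AT1G14250, a nucleoside phosphatase, was at 26.4 scaled CPM in the double and 40.1 in the triple mutant, with 105 in Col-0 and 3.68 in rdr6-11, and TAT3, a tyrosine aminotransferase of the jasmonate response, was at 25.3 and 27.8, with 101 and 5.67.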
